A study of Mus musculus with 4 samples.

Results

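The immunoglobulin-rich spots are the spots of a Visium slide with at least 100 unique molecular identifiers (UMIs, counts of captured RNA molecules) and at least 5 UMIs summed over Igkc, Ighg2c, Jchain and Ighm. They numbered 122 of 4603 spots over tissue, with 31, 31, 34 and 26 in frames 1 to 4. A spot is a small area of a tissue section that can hold several cells, so a spot is not a cell. The values of these 4 genes chose the spots. What those genes show is therefore given as a description, with no test.

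The tissue was fresh-frozen posterior eye of C57BL/6J mice, cut into cryosections and laid on 4 capture frames. Each frame is labelled as its own biological replicate, and all 4 carry 1 treatment label, Naive+AAV2/2, on retina with all retinal cell types. AAV2/2 is an adeno-associated virus used to carry a gene into retinal cells. The study's design text names Wif1, whose product binds and blocks Wnt proteins, as the delivered gene, a control, and retinas 2 and 4 weeks after injection, but the labels do not say which frame is which. No condition was compared here, and age, sex and the number of animals behind a frame are not given in the sources used. If frames share animals, p-values measure only the spread between sections.

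Plasma cells are B cells that have turned to making antibody. An antibody pairs heavy chains with light chains: Igkc is the constant part of the kappa light chain, and the heavy chain sets the class, Ighm for IgM, Ighg2c and Ighg2b for IgG, and Igha for IgA. Ighg2c is the form that C57BL/6 mice carry in place of Ighg2a. Jchain encodes the joining chain that links units of IgM and of IgA into larger molecules. In and around the eye, plasma cells are known from the lacrimal gland and conjunctiva, where much of their product is IgA. The neural retina normally holds few lymphocytes.

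Spots below 100 UMIs were left out, which removed 348 spots, 1 of them with 5 or more UMIs of the 4 genes. Among the 4255 spots kept, the immunoglobulin-rich share was 2.87%, with an exact 95% binomial interval of 2.39% to 3.41%. By frame it was 2.87%, 2.66%, 3.41% and 2.57%, so the frames were alike within these intervals, which cover counting error only. The comparison group was the 3626 spots of the same frames with 0 UMIs of the 4 genes, called zero spots below. The other 507 spots held 1 to 4 such UMIs. Frames held 674029 to 1066633 UMIs each. Immunoglobulin-rich spots were deeper than zero spots in every frame, with median UMIs of 747, 1141, 1178 and 761.5 against 585, 636, 632.5 and 456. Mitochondrial genes took 2.05%, 2.85%, 2.26% and 2.02% of their UMIs, against 2.46%, 2.81%, 2.67% and 2.71% in zero spots. A spot barcode stands for 1 grid position on any frame. The 122 spots used 109 barcodes, 12 of them in more than 1 frame.

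The immunoglobulin signal was concentrated in few spots. The 122 spots held 3282 of the 4078 UMIs of the 4 genes (80.5%), with a median of 12 and a maximum of 362 in 1 spot. The 10 richest spots held 45.5% of those 3282 UMIs, 16 spots had 50 or more, and 49 spots had 5 to 9. By frame the 4 genes made up 2.05%, 2.44%, 2.44% and 1.17% of all UMIs of these spots. The richest spot of each frame held 72, 264, 362 and 36 UMIs, so frame 4 had no very rich spot.

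Igkc, on chromosome 6 (70726435 to 70726754, GRCm38.p6), had 2115 UMIs in the immunoglobulin-rich spots, of 2598 in all 4603 spots. Its level was 11100, 17300, 15900 and 6750 counts per 1000000 UMIs (CPM) in frames 1 to 4, and 120 of the 122 spots held it. Lambda light chain constant genes had 37 UMIs in all spots, 22 of them in these 122, so nearly all light chain UMIs were kappa. Jchain, on chromosome 5 (88519809 to 88527897), had 460 UMIs in 74 of the spots, at 2880, 3260, 3550 and 1600 CPM. Only 10 of the 5053 UMIs of immunoglobulin genes, Jchain included, mapped to variable segments, so no clone or repertoire can be read from these counts.

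All heavy chain genes named here lie on chromosome 12. Ighg2c (113287389 to 113288932) had 544 UMIs in 67 of the spots, at 6260, 3000, 3060 and 2780 CPM. Frame 1 was therefore above the other 3 frames, which lay close together. Ighm (113418826 to 113422730) had 163 UMIs in 32 spots, at 230, 804, 1870 and 611 CPM. Frame 3 held 105 of those 163 UMIs. Ighg2b, a close relative of Ighg2c whose reads could be split between both genes, had 60 UMIs, and Ighg3 had 2.

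Igha, the IgA heavy chain (113256204 to 113260236), was not part of the rule. It was the heavy chain gene with the most UMIs in these spots, 668 of its 840, and 68 of the 122 spots held it. Its level was 3270, 5980, 5060 and 1530 CPM, against 27.2, 27.4, 16.3 and 27.2 CPM in zero spots, so the groups did not overlap in any frame. The 3626 zero spots held 69 Igha UMIs together. Antibody-making cells transcribe Igkc and a heavy chain together, so Igha is not independent of the rule and was not tested.

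The heavy chain with the most UMIs was gamma (Ighg2c plus Ighg2b) in 53 spots, alpha (Igha) in 47 and mu (Ighm) in 9. A further 8 spots were tied and 5 held no UMI of these genes. Gamma led 16, 9, 16 and 12 spots in frames 1 to 4, alpha 10, 18, 13 and 6, and mu 1, 1, 2 and 5. Frame 2 was the only frame where alpha led more spots than gamma. Of 65 spots with at least 5 heavy chain UMIs, 34 held 1 class alone and 39 held at least 90% of 1 class. Mixed spots were also common: 68 spots held Igha and 74 held gamma, and 32 held both.

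**Figure D1:**
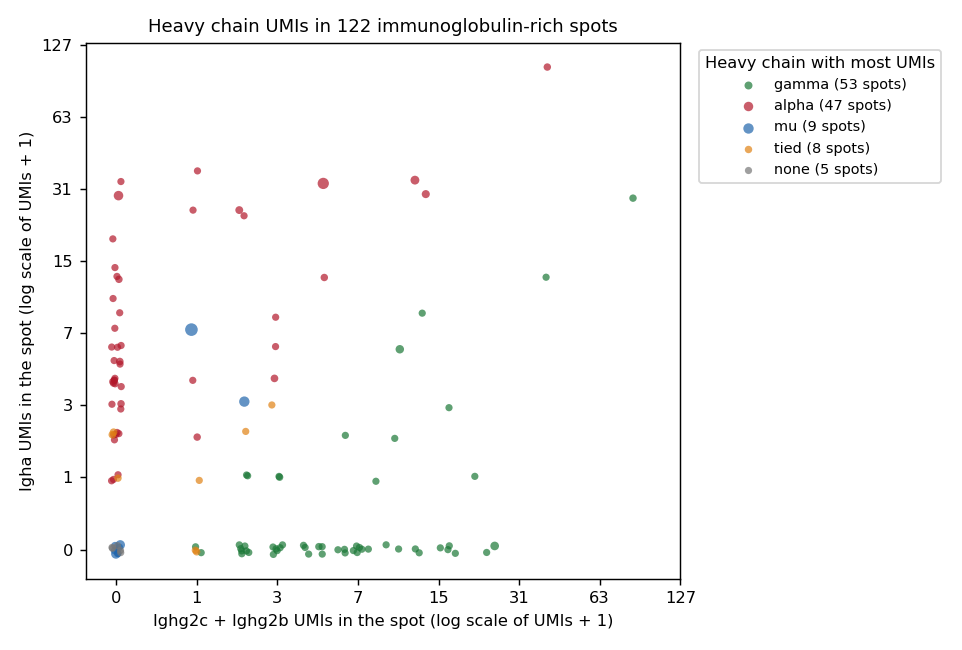
Each point is 1 of the 122 immunoglobulin-rich spots, with its Ighg2c plus Ighg2b UMIs on the x axis and its Igha UMIs on the y axis (both log scales of UMIs + 1, points slightly scattered), coloured by the heavy chain with the most UMIs and sized by Ighm UMIs. Many points lie along an axis, since 34 of 65 spots with at least 5 heavy chain UMIs held 1 class alone, while the richest spot held 106 Igha UMIs together with Ighg2c.

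Jchain went with the alpha-led spots more than with the gamma-led ones. Jchain UMIs per heavy chain UMI were 0.662, 0.401, 0.404 and 0.324 in alpha-led spots of frames 1 to 4. In gamma-led spots they were 0.133, 0.162, 0.0962 and 0.284. The mean was 0.448 ± 0.148 (SD, n = 4 frames) against 0.169 ± 0.0814, higher in alpha-led spots in 4 of 4 frames. No test is given, because the rule sums Jchain with Ighg2c but not with Igha. An alpha-led spot could reach 5 UMIs only through Igkc, Jchain or a minority of Ighg2c and Ighm, and a gamma-led spot could do so through Ighg2c alone.

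The richest spots differed from each other in class. The spot with 362 UMIs of the 4 genes, in frame 3, had 10085 UMIs in all and held Igkc 265, Igha 106, Jchain 56 and Ighg2c 40. The richest of frame 2 had 264, with Igkc 166 and Ighg2c 86 and an endothelial gene list leading its tissue genes. The second of frame 3 had 172, with Igkc 102, Jchain 36 and Ighm 33, and led with scleral fibroblast genes. The fifth richest spot, in frame 2, had Igkc 92, Jchain 39 and Igha 32 with no Ighg2c UMI. IgA, IgG and IgM RNA were each well represented in at least 1 of the richest spots.

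The label plasma cell was checked against 16 plasma cell genes outside the immunoglobulin loci. Of these, 12 had at least 1 UMI in the 122 spots and 4 had none, and most had few. Tnfrsf17, the BCMA receptor of plasma cells, had 0 UMIs in these and in zero spots. Mzb1, a chaperone for antibody assembly, had 0, 2, 1 and 0 UMIs in frames 1 to 4, Derl3 had 1 in all, and Prdm1, the regulator that commits B cells to the plasma cell fate, had 0. Sdc1, which encodes the plasma cell surface marker CD138, had 0, 1, 9 and 1. Zero spots, far more in number, held 8 UMIs of Mzb1, 3 of Derl3, 18 of Prdm1 and 29 of Sdc1. At this depth the 0 UMIs of Prdm1 do not show a lower level than in zero spots. Relative to all non-immunoglobulin UMIs, Mzb1 was 7-fold that of zero spots with a 95% counting interval of 1.2 to 29.1. Fkbp11, a folding helper of secretory cells, had 3 UMIs against 1. By the same measure that was 56-fold, with a 95% counting interval of 4.49 to 2940. Pou2af1, a B cell coactivator, had 4 UMIs, all in frame 3, against 1. Of 14 B cell genes, 3 had any UMI, 9 in total, with Cd79a at 0, 0, 4 and 1 and Ms4a1 at 0. The name immunoglobulin-rich spots is used for this reason. Antibody RNA was measured in them, while Tnfrsf17 and Prdm1 were not detected and Mzb1, Derl3 and Sdc1 had 1 to 11 UMIs each.

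Summed over the 16 genes, the plasma cell list was nonetheless higher in these spots. It reached 748, 513, 1080 and 413 CPM of non-immunoglobulin UMIs, against 177, 132, 129 and 160 CPM in zero spots, with no overlap (4.61-fold by the means, with 111 UMIs in 46 spots). Irf4 alone held 48 of those 111 UMIs, and 87 of the 416 UMIs of the list in zero spots. CPM of genes outside immunoglobulin are given of non-immunoglobulin UMIs from here on, so that the chosen genes do not enter. Each spot was also thinned to 400 UMIs, which left 99 immunoglobulin-rich and 2436 zero spots and left out 23 and 1190. At that equal depth 20.5% ± 7.28 (SD, n = 4 frames) of immunoglobulin-rich spots had a UMI of the list, against 4.4% ± 0.859 of zero spots. Without thinning the shares were 41.3% and 9.92%. In a spot, more cells of a type and more RNA per cell cannot be told apart.

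Genes outside immunoglobulin were tested on UMIs summed per frame, immunoglobulin-rich against zero spots of the same frame, with edgeR's quasi-likelihood test and Benjamini-Hochberg adjustment at 0.05. Of 4482 genes tested, 169 passed (3.77%), 47 higher (1.05%) and 122 lower (2.72%) in the immunoglobulin-rich spots, with a median log2 fold of -0.14 over all genes. Calls were mostly losses: 27.8% of them were higher. That share was 3.64% of 302 calls without the filter on low counts, 12% of 117 calls for spots with at least 10 UMIs of the 4 genes, and 17.5% of 40 calls against depth-matched spots. Leaving out frame 3 reduced the calls from 169 to 68, and leaving out frame 2 to 103. The filter on low counts can keep a gene through 1 spot group alone, so some genes entered only through the group where they were high. Below, a fold is a fitted log2 fold, and ± gives the SD over single-frame log2 folds (n = 4).

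Of the 16 plasma cell genes 3 could be tested, and 2 of them rose, against 1.05% of all genes tested. Both were scarce in zero spots and entered the test through the immunoglobulin-rich spots, so this share depends on the filter on low counts. Without that filter 15 were tested and 1, Irf4, passed, against 11 higher calls among 17118 genes. Irf4, a transcription factor needed for plasma cell differentiation and also active in pigment cells, had 4, 11, 26 and 7 UMIs in 25 spots. Its level was 157, 268, 476 and 241 CPM against 32.7, 31, 29.7 and 30.8 CPM in zero spots, so all 4 frames were higher without overlap. It rose by a log2 fold of 2.95 ± 0.697 (edgeR adjusted p = 9.3e-07). It also passed in all 14 alternative settings in which it was tested. Melanocyte genes moved with it: their summed level was 5270, 5760, 6050 and 1240 CPM against 2550, 3020, 2500 and 733 CPM. Their part in the Irf4 result was not tested. Txndc5, a disulphide isomerase of the secretory pathway, had 9, 3, 2 and 1 UMIs and a log2 fold of 2.07 ± 1.43 (edgeR adjusted p = 0.0169). It lost the call when any 1 frame was left out, and without frame 1 its fold was 1.08. Without the filter on low counts it did not pass either (1.47). Xbp1, which drives the secretory programme of plasma cells, had 4, 2, 3 and 0 UMIs and a log2 fold of 0.69 ± 1.92 (edgeR adjusted p = 0.77). Of 20 genes for protein folding and secretion in the endoplasmic reticulum, 16 were tested and none passed in either direction. That is near the 3.77% called over all genes, and their median log2 fold was -0.02.

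MHC class II genes rose together. These genes encode the molecules with which B cells, dendritic cells and macrophages show peptides to helper T cells. H2-Aa, H2-Ab1 and H2-Eb1 are chains of the class II molecules and Cd74 is the invariant chain that guides them. All 4 that could be tested of the 9 listed passed, each of them higher, against 1.05% higher calls over all genes, with a median log2 fold of 2.23. H2-Aa and H2-Eb1 entered the test only with the help of the immunoglobulin-rich spots. This share therefore depends in part on the filter on low counts. Without the filter on low counts 8 were tested and 3 passed, against 11 higher calls among 17118 genes. Both class II chain genes that had an entry in the RefSeq promoter table for GRCm38.p6 carry the letters CTGATTGG, part of the Y box of class II promoters, shortly before their start. They are shown because these genes moved together in the spots. Each line gives the 150 bases before the annotated start, 5′ to 3′ on the gene's strand, with CTGATTGG in capitals.
H2-Aa (chr17:34287824-34287973, minus strand): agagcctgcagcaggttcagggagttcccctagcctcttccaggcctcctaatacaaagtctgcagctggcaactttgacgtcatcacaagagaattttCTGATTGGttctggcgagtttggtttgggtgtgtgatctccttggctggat
H2-Eb1 (chr17:34305717-34305866, plus strand): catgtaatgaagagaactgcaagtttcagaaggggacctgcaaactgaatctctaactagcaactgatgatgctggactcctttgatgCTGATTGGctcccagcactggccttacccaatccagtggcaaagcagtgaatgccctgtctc
The letters lie 51 to 44 bases before the start of H2-Aa and 62 to 55 before that of H2-Eb1. In the same window on either strand, 1039 of 32851 promoters (3.16%) held them. A match is a description of the letters and not a measured site.

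H2-Aa had 13, 8, 14 and 15 UMIs, or 512, 195, 256 and 516 CPM, against 55.8, 53.7, 29.7 and 54.4 CPM in zero spots. The lowest immunoglobulin-rich frame was thus above the highest zero frame. H2-Aa rose by a log2 fold of 2.64 ± 0.58 (edgeR adjusted p = 3.78e-07). H2-Eb1 stood at 315, 439, 348 and 172 CPM against 83.1, 77.5, 56.3 and 30.8 CPM, again without overlap. H2-Eb1 rose by a log2 fold of 2.17 ± 0.303 (edgeR adjusted p = 5.75e-05). Cd74 was at 157, 439, 458 and 275 CPM against 113, 65.6, 40.0 and 39.9 CPM, with frame 1 closest to its zero spots. Cd74 rose by a log2 fold of 2.29 ± 1.24 (edgeR adjusted p = 1.32e-05). H2-Ab1 was at 157, 586, 275 and 413 CPM against 129, 95.4, 75.6 and 78.0 CPM, with frame 1 again the least different. H2-Ab1 rose by a log2 fold of 1.7 ± 1.01 (edgeR adjusted p = 0.00192). H2-Aa, H2-Eb1 and Cd74 passed in all 14 alternative settings in which they were tested, and H2-Ab1 in 11. It did not pass without frame 2 (1.36).

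The class II signal was not confined to the richest spots. Class II UMIs were found in 53 of the 122 spots, and the spot with most held 7.83% of the 217. The spot with 362 immunoglobulin UMIs of the rule held no class II UMI in its 10085. At 400 UMIs per spot, 32.1% ± 6.12 (SD, n = 4 frames) of immunoglobulin-rich spots had a class II UMI against 7.43% ± 0.252 of zero spots. Without thinning these shares were 48.4% and 15%.

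Macrophage genes rose in part. Of 24 macrophage and microglia genes, 7 were tested and 2 rose, against the same 1.05%, with a median log2 fold of 1.26. Without the filter on low counts 24 were tested and 2 passed, C1qb not among them. C1qb entered the main test only with the help of the immunoglobulin-rich spots. Lyz2, lysozyme of macrophages and other myeloid cells, had 5, 33, 61 and 7 UMIs, or 197, 805, 1120 and 241 CPM, against 105, 89.4, 72.7 and 61.7 CPM. Frames 2 and 3 carried most of it, and all 4 frames were higher. Lyz2 rose by a log2 fold of 2.52 ± 1.33 (edgeR adjusted p = 7.05e-09), and it passed in all 14 alternative settings in which it was tested. C1qb, a chain of the first complement component made by macrophages, was at 0, 97.6, 293 and 103 CPM against 38.1, 28.6, 11.9 and 25.4 CPM. C1qb had a log2 fold of 2.15 ± 2.86 (edgeR adjusted p = 0.0214), lower in frame 1. Without frame 3 its fold was 1.00 and no longer passed, and it did not pass without frame 2 or 4 either. The microglial genes Cx3cr1, P2ry12 and Tmem119 had 0 UMIs in these spots, with 8, 6 and 21 in all zero spots. Zero spots held 2798680 UMIs of all genes against 154061, so these counts of 0 do not show a lower level. Summed, the macrophage list was at 1300, 2930, 3520 and 1240 CPM against 892, 978, 571 and 653 CPM, with no overlap (2.90-fold by the means).

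Further genes named by their fold or by the tissue-matched comparison are known from immune cells, and they form no list chosen as such. Il16, a cytokine precursor of lymphocytes and other immune cells, had 13, 9, 25 and 15 UMIs in 37 spots, or 512, 220, 458 and 516 CPM. Zero spots held 80.3, 69.2, 90.4 and 79.8 CPM, so the groups lay far apart in every frame. Il16 rose by a log2 fold of 2.12 ± 0.414 (edgeR adjusted p = 1.13e-05), and it passed in all 14 alternative settings in which it was tested. Ptprcap, a partner of the leukocyte phosphatase CD45, was at 590, 439, 623 and 619 CPM against 214, 261, 194 and 174 CPM. Ptprcap rose by a log2 fold of 1.2 ± 0.394 (edgeR adjusted p = 0.00896), and it did not pass without frame 3 (1.11) or frame 4 (1.07). Ptprc, which encodes CD45 itself, was higher in 4 of 4 frames but did not pass (log2 fold 0.87 ± 0.762, edgeR adjusted p = 0.123). Unc93b1, which carries nucleic acid-sensing Toll-like receptors to endosomes, had a log2 fold of 2.23 ± 0.63 (edgeR adjusted p = 0.00345), with 7, 5, 14 and 5 UMIs. Without frame 3 its fold was 1.91 and it did not pass. Pld4, an endosomal nuclease of myeloid and dendritic cells, had 10 UMIs and rose by a log2 fold of 2.15 ± 1.09 (edgeR adjusted p = 0.0139). It did not pass without frame 2 (2.17), frame 4 (1.41) or the filter on low counts (1.62). Pld4 was scarce in zero spots and entered the test through the immunoglobulin-rich spots. Unc93b1 also needed those spots to enter, and it did not pass without the filter on low counts (1.73).

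No gene of T cells, natural killer cells, B cells, granulocytes or mast cells was abundant enough to test. T and NK genes had 38 UMIs in 21 of the spots, summing to 197, 317, 311 and 103 CPM against 85.8, 72.7, 37.1 and 54.4 CPM, with no overlap (3.71-fold by the means). Among them were the T cell receptor constant genes Trac with 8 UMIs and Trbc2 with 5, and Cd3g with 6. The cytotoxic genes Gzmb and Cd8a had 0, against 22 and 5 in all zero spots, which is too few to show a lower level. At 400 UMIs per spot the share of spots with a T or NK UMI was 10.2% ± 8.49 against 1.99% ± 0.193, and 0% in at least 1 frame. Granulocyte and mast cell genes had 10 UMIs, and the groups overlapped. Pigr, the epithelial receptor that carries IgA and IgM across a mucosa, had 0 UMIs in these and in zero spots.

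No interferon response gene rose, and 1 MHC class I gene did. Of 18 interferon response genes 11 were tested, none rose and 1 fell, with a median log2 fold of -1.18. Over all genes tested 1.05% rose and 2.72% fell, so no rise among 11 is near that share. Irgm1, an interferon-induced GTPase named because the tissue-matched comparison called it, was at 394, 439, 1030 and 1070 CPM against 1640, 1620, 1260 and 1080 CPM. For Irgm1 the log2 fold was -1.19 ± 0.966 (edgeR adjusted p = 0.000647), with frame 4 almost level, and it did not pass without frame 1 (-0.93) or frame 2 (-0.94). Igtp, of the same family, had 1 UMI in these spots and 228 in zero spots, a ratio of zero to immunoglobulin-rich spots of 12.2 with a 95% counting interval of 2.17 to 485. It did not pass when any 1 frame was left out, with an edgeR adjusted p of 0.0743 to 0.19. Of 13 class I genes 10 were tested and 1 rose, against the same 1.05% over all genes. H2-K1, a classical class I chain whose reads could be shared with related class I genes, was at 709, 952, 861 and 275 CPM against 295, 259, 184 and 196 CPM. H2-K1 rose by a log2 fold of 1.35 ± 0.826 (edgeR adjusted p = 0.00101), and it did not pass without frame 2 (1.17) or frame 3 (1.07). B2m, the light chain of class I molecules, had a log2 fold of 0.45 ± 0.965 (edgeR adjusted p = 0.541).

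Among complement genes 7 of 10 were tested and C3 alone passed, with a log2 fold of 0.92 ± 1.43 (edgeR adjusted p = 0.0272). Over all genes tested 1.05% rose. C3, the central complement protein, was at 787, 5610, 2070 and 1030 CPM against 1040, 774, 833 and 753 CPM, with 1 spot holding 20.4% of its 393 UMIs. The excess lay in frame 2, without which the fold was 0.25, and it did not pass without frame 1 or 3 either. Of 4 chemokine, survival factor and adhesion genes tested, none passed, against 3.77% called over all genes. Il12a, which encodes a subunit of the cytokines IL-12 and IL-35, was at 433, 73.2, 55.0 and 103 CPM against 62.6, 110, 62.3 and 87.1 CPM and did not pass (log2 fold 0.55, edgeR adjusted p = 0.751). Lcn2, an iron-binding acute phase protein, had a log2 fold of -0.97 and did not pass (edgeR adjusted p = 0.144). Wif1 had 4 UMIs in these spots and 44 in zero spots and was not tested.

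**Figure D2:**
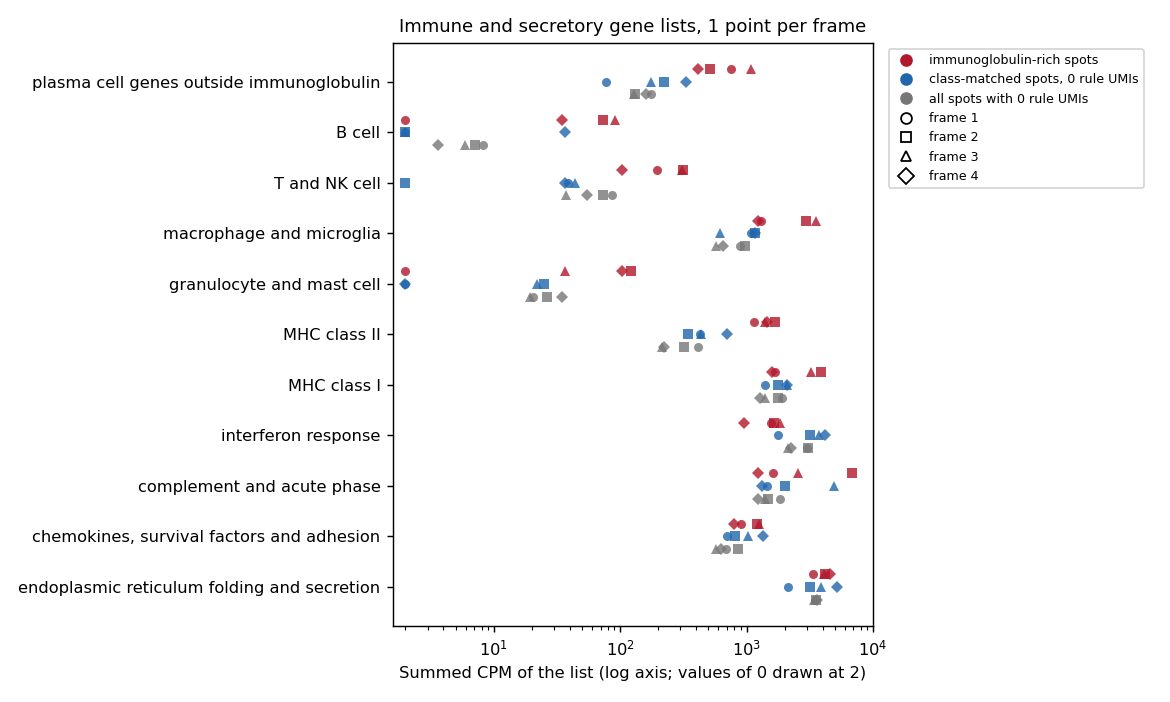
Each point is the summed level of a gene list in 1 frame, in CPM of non-immunoglobulin UMIs on a log axis, for immunoglobulin-rich spots, tissue-matched zero spots and all zero spots (values of 0 drawn at 2). Class II, plasma cell, macrophage and T and NK lists stand higher in all 4 frames, while the interferon list stands lower, at 963 to 1830 against 2130 to 3060 CPM.

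The tissue under the immunoglobulin-rich spots was low in rod RNA. All 15 rod genes were tested and all 15 fell, against 2.72% lower calls over all genes, with a median log2 fold of -1.59. Their summed level was 4370, 14800, 12200 and 26800 CPM, against 32800, 30000, 34800 and 38200 CPM in zero spots. The groups did not overlap, and frame 4 was the least different. Nr2e3, the nuclear receptor that fixes rod identity, was at 748, 1100, 1390 and 2060 CPM against 3280, 2840, 5060 and 3890 CPM. For Nr2e3 the log2 fold was -1.78 ± 0.486 (edgeR adjusted p = 4.15e-11). Pde6b, a subunit of the rod phosphodiesterase, had a log2 fold of -1.96 ± 1.11 (edgeR adjusted p = 2.67e-11). Impg1, a protein of the matrix around photoreceptors, had 0 UMIs against 177 in zero spots. That is at least 3.16-fold lower with a floor of 3 UMIs over all immunoglobulin-rich spots, and it did not pass without frame 2, 3 or 4. Cone, bipolar, amacrine, ganglion, Müller glia and astrocyte genes gave no call among the 31 tested, against 3.77% called over all genes. Gfap, which marks astrocytes and reactive Müller glia, was at 197, 195, 128 and 379 CPM against 88.5, 178, 411 and 307 CPM and did not pass (log2 fold -0.37, edgeR adjusted p = 0.789). Among these retinal cell lists, calls were found for rods alone. No call among 31 genes is near the share over all genes, so it does not show that the other cell types were unchanged.

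Pigment epithelium genes fell in part. Of 8, 7 were tested and 3 fell, against 2.72% lower calls over all genes, with a median log2 fold of -0.98. Rgr, an opsin of the visual cycle, was at 118, 220, 165 and 379 CPM against 477, 1090, 928 and 350 CPM, a log2 fold of -1.91 ± 1.10 (edgeR adjusted p = 4.77e-06). In frame 4 the groups were close. Lrat, which esterifies retinol, had 10 UMIs and a log2 fold of -2.25 ± 2.69 (edgeR adjusted p = 0.000685). It did not pass without frame 2 (-1.55) or frame 3 (-1.86). Ttr, the retinol carrier transthyretin, had a log2 fold of -0.98 ± 0.61 (edgeR adjusted p = 0.0186), and did not pass without frame 1, 2 or 3, with a fold of -0.72 without frame 2. Rpe65 had 5 UMIs and just missed the limit (log2 fold -2.08, edgeR adjusted p = 0.0505).

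A minority of the genes of the fibrous coat and of vessels that were tested rose, and 3 of 6 melanocyte genes did, against 1.05% higher calls over all genes. None of these kept its call when each frame was left out in turn. The melanocyte list holds 9 genes, 6 of them tested. Dct, an enzyme of melanin synthesis, was at 3030, 3560, 3540 and 551 CPM against 1320, 1680, 1300 and 337 CPM, a log2 fold of 0.92 ± 0.376 (edgeR adjusted p = 0.00614). Frame 4 was low in both groups. Mlana and Gpnmb, both pigment cell proteins, had log2 folds of 1.44 ± 0.47 and 1.55 ± 2.60 (edgeR adjusted p = 0.0372 and 0.0177). None of the 3 passed without frame 2 (0.89, 1.46 and 1.31) or frame 3 (0.80, 1.18 and 0.99), and Mlana did not without frame 4 (1.43). None of the 3 passed at 10 or more UMIs of the rule. Fbln1, a matrix protein of fibroblasts, was the 1 fibroblast gene called of 7 tested, at 1.83 ± 1.51 (edgeR adjusted p = 0.000917). It did not pass without frame 2 (1.32) or frame 3 (1.55). Vwf, the von Willebrand factor of endothelium, was the 1 called of 3 tested. It was at 197, 635, 476 and 585 CPM against 200, 165, 249 and 120 CPM, with frame 1 level and the other 3 frames higher. Its log2 fold was 1.15 ± 0.988 (edgeR adjusted p = 0.027), and it did not pass without frame 2 (0.89), frame 3 (1.33) or frame 4 (0.86). Muscle genes were scarce. Myh4, a fast muscle myosin, had a log2 fold of -2.49 ± 2.22 (edgeR adjusted p = 6.79e-05). None of 3 mural, 1 red blood cell and 1 surface epithelium gene tested passed.

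**Figure D3:**
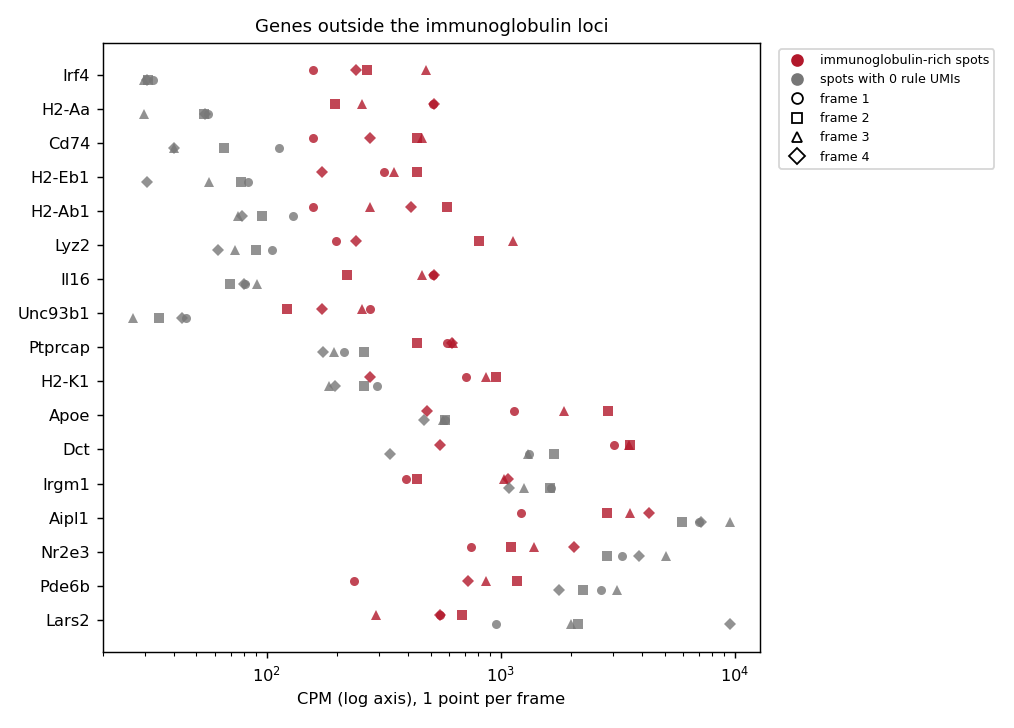
Each point is the level of a gene in 1 frame, in CPM of non-immunoglobulin UMIs on a log axis, in immunoglobulin-rich and in zero spots. Irf4, H2-Aa, Cd74, H2-Eb1, Lyz2 and Il16 lie higher in all 4 frames, while Aipl1, Nr2e3, Pde6b and Lars2 lie lower in all 4.

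Among the genes with the largest folds, several belong to epithelium or to few spots. Slpi, a secreted protease inhibitor of mucosal epithelium, had the largest positive fold, 3.93 ± 0.618 (edgeR adjusted p = 8.43e-05), on 8 UMIs in 8 spots against 8 UMIs in all zero spots. It was too scarce to test without frame 1, 2 or 3. Krt7, a keratin of simple and glandular epithelium, had 23, 2, 31 and 0 UMIs in 9 spots and a fold of 2.34 ± 3.57 (edgeR adjusted p = 0.000108). Without frame 1 or frame 3 its fold was 1.61 or 1.80 and did not pass, and without spots led by epithelial or gland genes, a setting added after the data were seen, it was 0.41. Surface epithelium genes summed to 827, 73.2, 1260 and 34.4 CPM, with 1 spot holding 61.7% of their UMIs, and lacrimal and other gland genes had 3 UMIs. The remaining positive folds among the 15 largest were Igfbp2 (2.19), Dapl1 (2.13), Optc (2.13) and Zic1 (2.25), on 12, 14, 38 and 7 UMIs. Each of these 4 lost its call without at least 2 of the frames, including frame 3. None of these 4 passed without the filter on low counts. Slpi, Igfbp2, Dapl1 and Zic1 were scarce in zero spots and entered the test through the immunoglobulin-rich spots. Krt7 and Optc also needed those spots to enter it. At the other end, Ddx20, D1Ertd622e, Atf7ip and Rab8a had 0 UMIs. They were at least 3.25-fold, 2.23-fold, 2.18-fold and 2.11-fold lower than in zero spots with the same floor. Arhgef26, Ppp2r2d and Dgke had 1 UMI each. None of these 7 kept its call without each frame in turn.

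To describe where the spots lay, each spot was assigned the tissue list with the largest excess over its frame, among lists with at least 3 UMIs in the spot. The spots' grid positions could not be joined to their counts, so no distance is given. Ganglion genes led 30 of the 122 spots, melanocyte genes 18, amacrine 13, endothelium 10, and Müller glia, rod, scleral fibroblast and mural cell genes 8 each. Surface epithelium led 5, cone 4, and bipolar and pigment epithelium genes 2 each. An astrocyte list led 1 spot, muscle, myelin and red blood cell lists led 0, and 5 spots had no leading list.

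Rods led 6.45%, 6.45%, 5.88% and 7.69% of immunoglobulin-rich spots but 32.8%, 26.5%, 29.7% and 44.0% of zero spots, lower in 4 of 4 frames. Zero spots of the same depth were led by rods in 33.6% ± 15 (SD, n = 4 frames). Pigment epithelium led 1.54% ± 1.78 against 9.40% ± 1.88, also lower in 4 of 4. Mural cells, the contractile cells of vessel walls, led 12.9%, 6.45%, 2.94% and 3.85% against 1.62%, 1.43%, 2.25% and 1.03%, higher in 4 of 4. Endothelium led 8.54% ± 6.97 against 1.21% ± 0.437, higher in 3 of 4 frames with 0 spots in frame 1. Ganglion genes led 24.9% ± 12.6 against 15% ± 2.90, higher in frames 1 and 4 only. With 4 frames the smallest exact two-sided permutation p is 0.125, so none of the 17 classes could pass, and adjusted values ran from 0.304 to 0.875.

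**Figure D4:**
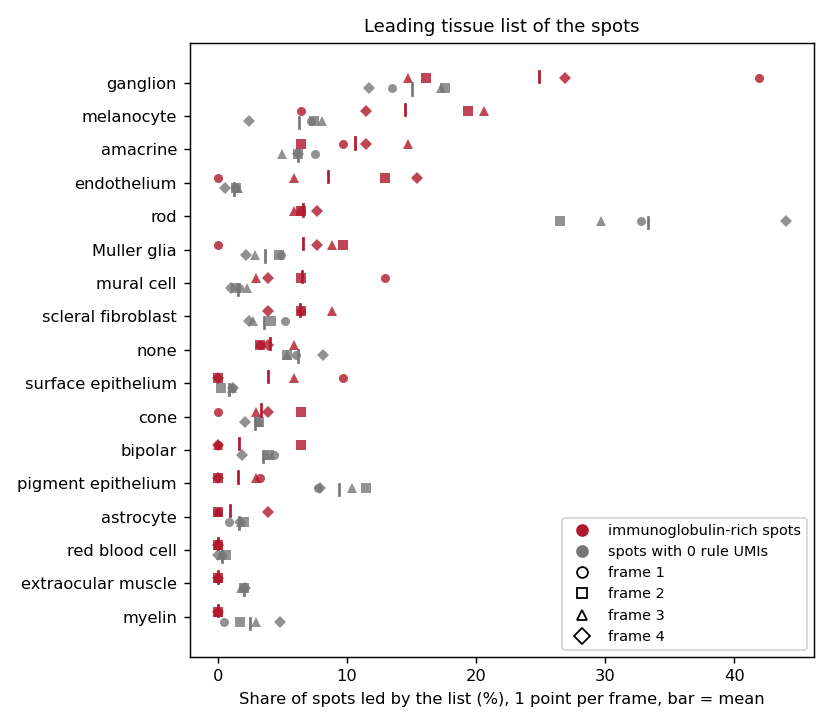
The x axis is the percentage of spots led by each tissue list, with 1 point per frame and a bar at the mean of 4 frames, for immunoglobulin-rich spots and zero spots. Rods lead 5.88% to 7.69% of immunoglobulin-rich spots and 26.5% to 44.0% of zero spots, while endothelium and mural cells lie higher in 3 and 4 of the 4 frames.

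Because the tissue differed, each immunoglobulin-rich spot was also set beside 1 zero spot of the same frame with the same leading list and the nearest depth. All 122 spots found a partner. Median non-immunoglobulin UMIs were 814.5 and 853. The matching was not complete for rods, whose list stood at 0.671 of the matched level. Other lists were uneven too, with myelin at 0.319, pigment epithelium at 0.672, melanocyte at 1.35 and surface epithelium at 1.71 of it. Of 545 genes abundant enough to test, with the tissue list genes left out, 8 passed (1.47%), 3 higher (0.55%) and 5 lower (0.917%). None of the 8 kept its call without each frame in turn. Without frame 3 no gene passed in edgeR (29 had an unadjusted p under 0.05), without frame 1 there was 1 call, without frame 2 there were 7 and without frame 4 there were 14. DESeq2 gave 2 calls.

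The 3 genes that rose were immune genes in part. H2-K1 and Ptprcap entered this test only with the help of the immunoglobulin-rich spots. H2-K1 had a log2 fold of 1.57 ± 0.382 (edgeR adjusted p = 0.029) on 112 UMIs against 37. Ptprcap had 1.61 ± 0.842 (edgeR adjusted p = 0.0305) on 85 UMIs against 26, higher in 4 of 4 frames. Apoe, a lipid carrier made by macrophages and by glia, had 1.37 ± 0.939 (edgeR adjusted p = 0.0139) on 261 against 81, higher in 3 of 4. Among the 5 that fell were Irgm1 (-1.29 ± 0.716), Aipl1 (-0.99 ± 0.561), Samd7 (-1.31 ± 0.195) and Lars2 (-2.15 ± 1.35), each with an edgeR adjusted p of 0.0133. Aipl1 and Samd7 are photoreceptor genes outside the rod list, and they lie lower beside the incomplete rod match. Lars2, the mitochondrial leucyl-tRNA synthetase, was at 551, 683, 293 and 551 CPM against 952, 2140, 2000 and 9520 CPM in all zero spots. Frame 4 was thus far above the others among zero spots, while the share of mitochondrial genes there was 2.71%, near the 2.46% to 2.81% of the other frames.

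The class II, plasma cell and T cell genes were too scarce for this test, so their UMIs are set side by side. Class II genes had 217 UMIs in the immunoglobulin-rich spots and 64 in the matched spots. The matched level was 427, 347, 439 and 696 CPM against 1140, 1680, 1410 and 1450 CPM, without overlap (2.98-fold by the means). H2-Aa had 50 UMIs against 9, Cd74 55 against 15, H2-Eb1 50 against 13, and H2-Ab1 55 against 22. Plasma cell genes had 111 against 28 (3.42-fold), Irf4 alone 48 against 5. Macrophage genes had 381 against 135 (2.22-fold), Lyz2 alone 106 against 20. T and NK genes had 38 against 4. All of these lists stood apart from the matched spots in 4 of 4 frames. Endothelium (1.19-fold) and fibroblast genes (1.05-fold) overlapped with the matched spots. Those 2 lists were among the tissue lists that drew the match, so their overlap is no contrast to the immune lists.

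The other genes were finally followed across steps of 0, 1, 2 to 4, 5 to 9 and 10 or more UMIs of the 4 rule genes, in 3626, 343, 164, 49 and 73 spots, pooled over frames. The last steps are defined by the rule itself, and no test is given. Igha was at 24.7, 99.2, 313, 1620 and 5600 CPM, higher at each step. Class II genes were at 299, 306, 513, 826 and 1740 CPM, so spots with 1 UMI were at the level of zero spots. By frame the step of 5 to 9 was uneven, at 1380, 389, 113 and 1070 CPM, while the step of 10 or more was at 941, 2120, 1660 and 2020. Plasma cell genes were at 149, 182, 319, 310 and 945 CPM and macrophage genes at 793, 858, 1240, 1340 and 3110. Rod genes were at 33500, 36800, 25400, 25400 and 9170 CPM. The frames differed in where rods were low. In frame 1 rods were at 5690 CPM in the step of 5 to 9 and 3260 in the step above, and in frame 2 at 14600, 15600 and 14500 in the last 3 steps. In frame 3 they were at 28300 and 9110 CPM in the last pair of steps. In frame 4 rods were at 42500 CPM in the step of 5 to 9 and at 2290 in the step above. Median UMIs per spot were 584.5, 751, 795, 697 and 1030, so depth did not follow the steps evenly.

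At the threshold itself, 34 spots had exactly 4 UMIs of the 4 genes and 14 had exactly 5. Their median depths were 871.5 and 834.5 UMIs. They held 25 and 10 Igha UMIs in all. Class II genes were at 315 and 1710 CPM, plasma cell genes at 341 and 373, macrophage genes at 1100 and 745, and rods at 29500 and 42300. Spots on both sides of the threshold thus had rods near the zero level.

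**Figure D5:**
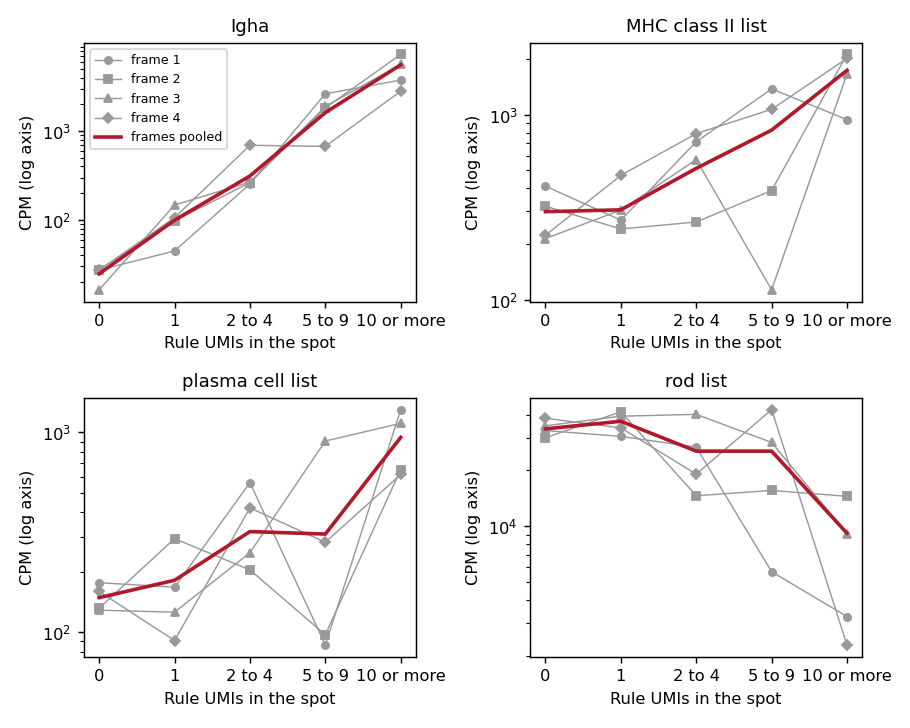
Each panel plots the level in CPM on a log axis against steps of rule UMIs in the spot, for Igha (of all UMIs) and for 3 gene lists (of non-immunoglobulin UMIs), with a grey line per frame and a red line for the frames pooled. Igha climbs from 24.7 to 5600 CPM and class II from 299 to 1740 CPM, while rods drop from 33500 to 9170 CPM when pooled, at the last step in frames 3 and 4 and at earlier steps in frames 1 and 2.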

How the data were processed

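The authors deposited UMI counts per gene and spot for 4 capture frames, per the file headers from Space Ranger 2.0.0, on mm10 per the submitters' processing notes. The sources used here do not give alignment settings. The labels call the molecule nuclear RNA while their protocol describes capture from whole cryosections, so the share of nuclear RNA in the UMIs is unknown. The 4 matrices hold 32285 genes. Counts were summed per frame over immunoglobulin-rich and zero spots. The 393 immunoglobulin genes, Jchain counted among them, entered neither library sizes nor tests. Genes were kept by filterByExpr (min.count 10), scaled by TMM and tested with edgeR 4.0.16's robust quasi-likelihood test in R 4.3.3 with the frame as block, adjusted by Benjamini-Hochberg at 0.05. DESeq2 1.42.0 was an alternative. The frame block follows from design, as both spot groups share a section. Same-frame deviations correlated at 0.0297, 0.0619, 0.0366 and 0.148. Log2 folds of single frames used a prior count of 2. Scripts were tested on simulated data with a set spread. The comparison with zero spots recovered 54.9% of tested genes given a log2 fold of 2, and 4.55% of those given 1. For the matched comparison these shares were 98.7% and 37.5%. A gene that did not pass is therefore not shown to be unchanged.

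Named genes were the rule genes, other immunoglobulin constant genes with at least 10 UMIs, the 15 largest positive and 10 largest negative folds that passed, up to 3 passing genes per list with the lowest p, and 13 genes whatever their values. Other list genes and the 8 genes of the matched test were named after their values were seen. The members and the 28 lists were chosen with earlier results of these data known. Some genes are not reported here. Gene positions come from RefSeq for GRCm38.p6.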

Additional observations from a re-analysis of the deposited data

Results flagged for a closer look

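Of 34 values of the immunoglobulin-rich spots checked across the 4 frames, 2 had 1 frame far from the other 3. Chance gives about 1 in 20 values, so 2 of 34 is near what chance gives. Ighg2c stood at 6260 CPM in frame 1 against 2780 to 3060 in the others. It is 1 of the genes that chose the spots, so its value is a description only. The melanocyte list stood at 1240 CPM in frame 4 against 5270 to 6050 in the others. In frame 4 that list was also low in zero spots, at 733 CPM against 2500 to 3020.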

How the results depend on the processing

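The comparison with zero spots gave 169 calls; 86 with DESeq2, 302 without the filter on low counts, 40 of 567 genes tested against depth-matched spots, and 68 to 130 without 1 frame. Without that filter the median log2 fold moved from -0.14 to -0.92. Dropping the frame block gave 187. The matched comparison gave 8 calls; 2 with DESeq2, 0 at 3 or more rule UMIs (86 of 846 genes at an unadjusted p under 0.05), 0 with no replicate block (44 such genes) and 0 to 14 without 1 frame. At 3 or more and at 10 or more rule UMIs there were 194 and 73 spots in place of 122. Of 47 named genes called against zero spots, 16 kept their call without each frame in turn, among them Irf4, H2-Aa, H2-Eb1, Cd74, Lyz2, Il16, Lars2, Pde6b and Nr2e3; the matched comparison kept 0 of 8. Class II calls were 3 or 4 of 4 tested, or 3 of 8 without the filter, and were not tested against depth-matched spots; rod calls were 11 to 15 of 15, or 12 of 13 against depth-matched spots. Folds that changed sign, none of them called, were B2m without the filter (-0.07), Gfap without frame 3 (0.23), Il12a without frame 1 (-0.43), and, against matched spots, C3 (-0.20) and B2m (-0.02) without frame 2. With 1 frame left out these 4 ran from -0.67 to 0.23, -0.43 to 0.92, -0.20 to 0.96 and -0.02 to 0.69. B, T and granulocyte genes were below the test's minimum. The causes of these shifts were not tested.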
